A study of Homo sapiens with 20 samples.

Results

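The genes followed here encode 8 members of the P2 purinergic receptor family, namely the ion channel genes P2RX4, P2RX5, P2RX6 and P2RX7 and the G protein-coupled receptor genes P2RY1, P2RY2, P2RY6 and P2RY11. They were taken from a table of 58825 genes by their symbols, each of which occurred in 1 row, and 6 of the 8 passed the filter on low values that left 20094 genes for testing. The cells were A549, a human lung adenocarcinoma line, and the 20 RNAseq libraries fell into 5 groups of 4: TGF-β 6 h and TGF-β 2 h, with 6 and 2 hours of transforming growth factor β at 10 ng/mL, eATP 6 h and eATP 2 h, with 6 and 2 hours of extracellular ATP at 0.5 mM, and untreated controls. The labels name no transgene or engineered allele in any group, and the single cell line limits the data to 1 genetic background. The controls carry no collection time, so that both durations were compared with the same 4 control libraries and the 4 comparisons with controls share them.

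P2 receptors sit in the plasma membrane and sense nucleotides outside the cell. The P2X subunits assemble into cation channels that open when ATP binds and let sodium and calcium in, whereas the P2Y receptors act through heterotrimeric G proteins, several of them through phospholipase C and the release of calcium from internal stores. Epithelial cells of the airway use P2Y2 in particular, which responds to ATP and UTP alike, to regulate ion transport and mucociliary clearance. The receptors are of interest in this experiment because one of the inducers of epithelial mesenchymal transition (EMT), eATP, is itself a P2 ligand while the other, TGF-β, is not.

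The counts of a library summed to between 56187614 and 75050437. Whether a group's libraries were grown as separate cultures is not stated, so p-values speak only to the spread among libraries, and that spread may be technical. All 9 markers of A549 and lung epithelium, among them EPCAM, KRT8 and KRT18, had a mean of at least 0.1 FPKM (fragment counts scaled to transcript length and library size) in every group, and their summed FPKM was 7325 to 7810 in TGF-β 6 h and 8299 to 8866 in the controls. Of 7 leukocyte markers 3 or 4 in a group had such a mean, with a sum of 4.11 to 6.17 FPKM in TGF-β 6 h and 6.79 to 8.57 in the controls. Counts in every library were found for CD14 (1.15 to 5.47 FPKM), CD68 (1.79 to 6.22 FPKM) and ITGAM (0.110 to 0.554 FPKM). CD3E had no count in any library and PTPRC at most 8. The 4 fibroblast markers summed to 14.8 to 17.9 FPKM in TGF-β 6 h and 5.76 to 6.55 in TGF-β 2 h, against 0.972 to 1.31 in the controls. Only COL1A1 of that list had a mean of at least 0.1 FPKM, and the defining DCN and PDGFRB had at most 8 and 12 counts. The sum of 3 endothelial markers was 0.266 to 0.381 FPKM in eATP 6 h and 0.270 to 0.530 in eATP 2 h, against 0.0909 to 0.176 in the controls. Of these 3, 0 or 1 in a group had a mean of at least 0.1 FPKM. Over all libraries CDH5 had 0.0301 to 0.503 FPKM, PECAM1 at most 0.0671 and VWF at most 0.00825. The A549 sum in eATP 6 h, 7767 to 8269 FPKM, lay below all controls. Of 3 platelet and megakaryocyte markers 2 or 3 in a group had a mean of at least 0.1 FPKM. Their sum was 1.02 to 1.46 FPKM in TGF-β 6 h and 1.58 to 2.93 in the controls, and PF4 had 0.702 to 2.19 FPKM over all libraries. The part of these differences in the receptor values was not tested. Replicate 1 of TGF-β 2 h lay far from the rest: the SD of its deviation from its group over 13854 genes was 0.595 on the log2 scale, against 0.292 to 0.388 elsewhere. Several receptor values are given without it as well. Genes other than the receptors were not examined without it, so that their TGF-β 2 h values all include it. In RNA from a whole culture, fewer cells that express a receptor and less of its RNA per cell cannot be told apart.

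A549 expressed 6 of the 8 receptor genes at 0.1 FPKM or more, and each of the 6 did so in all 20 libraries. Only P2RX4, P2RX5, P2RY2 and P2RY6 passed 1 FPKM in all 20. In the controls P2RY2 had the highest level, 2.66 ± 0.335 FPKM (SD, n = 4), followed by P2RX5 with 2.27 ± 0.593, P2RY6 with 1.53 ± 0.0860 and P2RX4 with 1.49 ± 0.164 FPKM. The control libraries of P2RY2 and P2RX5 overlapped, as did those of P2RX5 and P2RY6 and those of P2RY6 and P2RX4, so that no neighbours in this order differ beyond the spread of the libraries, while every control library of P2RY2 lay above every one of P2RY6 and P2RX4. P2RY1 and P2RY11 formed a lower pair at 0.530 ± 0.0413 and 0.455 ± 0.139 FPKM, overlapping each other and lying below every control library of P2RX4. In TGF-β 6 h the order began with P2RY2 and P2RY6, all libraries of each above those of every gene after it, and P2RX4 and P2RX5 overlapped, as did P2RY11 and P2RY1. In eATP 6 h it began with P2RY2, P2RX5 and P2RX4 overlapped, and P2RY6 lay below both. For scale, the control level of P2RY2 exceeded that of 57.3% of the 20094 genes tested and the level of P2RY11 that of 32.2%.

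P2RX7, the gene of the channel that opens a large pore at high ATP and drives interleukin 1β release in myeloid cells, had a count of 0 in all 20 libraries. A count of 0 allows up to 3 counts in a library, which is 0.0400 to 0.0534 CPM (counts scaled to library size) at these depths. P2RX7 lies on chromosome 12 (chr12:121132819-121188032 in the GENCODE release 29 annotation, GRCh38), and its neighbour P2RX4 (chr12:121209857-121234106), 21824 bases downstream, had 842 to 1551 counts in every library. P2RX6 (chr22:21009808-21028830), whose subunit forms functional channels poorly on its own, had 322 counts over 17 libraries and reached 0.1 FPKM in 1 library, a control at 0.111 FPKM. Its counts were 21, 0, 0 and 8 in TGF-β 6 h, 24, 0, 21 and 21 in TGF-β 2 h, 19, 8, 8 and 8 in eATP 6 h, 26, 16, 8 and 31 in eATP 2 h, and 27, 42, 7 and 27 in the controls. The treated groups overlapped the controls, and neither P2RX6 nor P2RX7 passed the filter for testing. The 7 P2 receptor genes outside this set (P2RX1, P2RX2, P2RX3, P2RY4, P2RY12, P2RY13 and P2RY14) also failed the filter: P2RX3 reached 16 counts in 1 library, P2RY14 8, and P2RY4 had none.

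**Figure D1:**
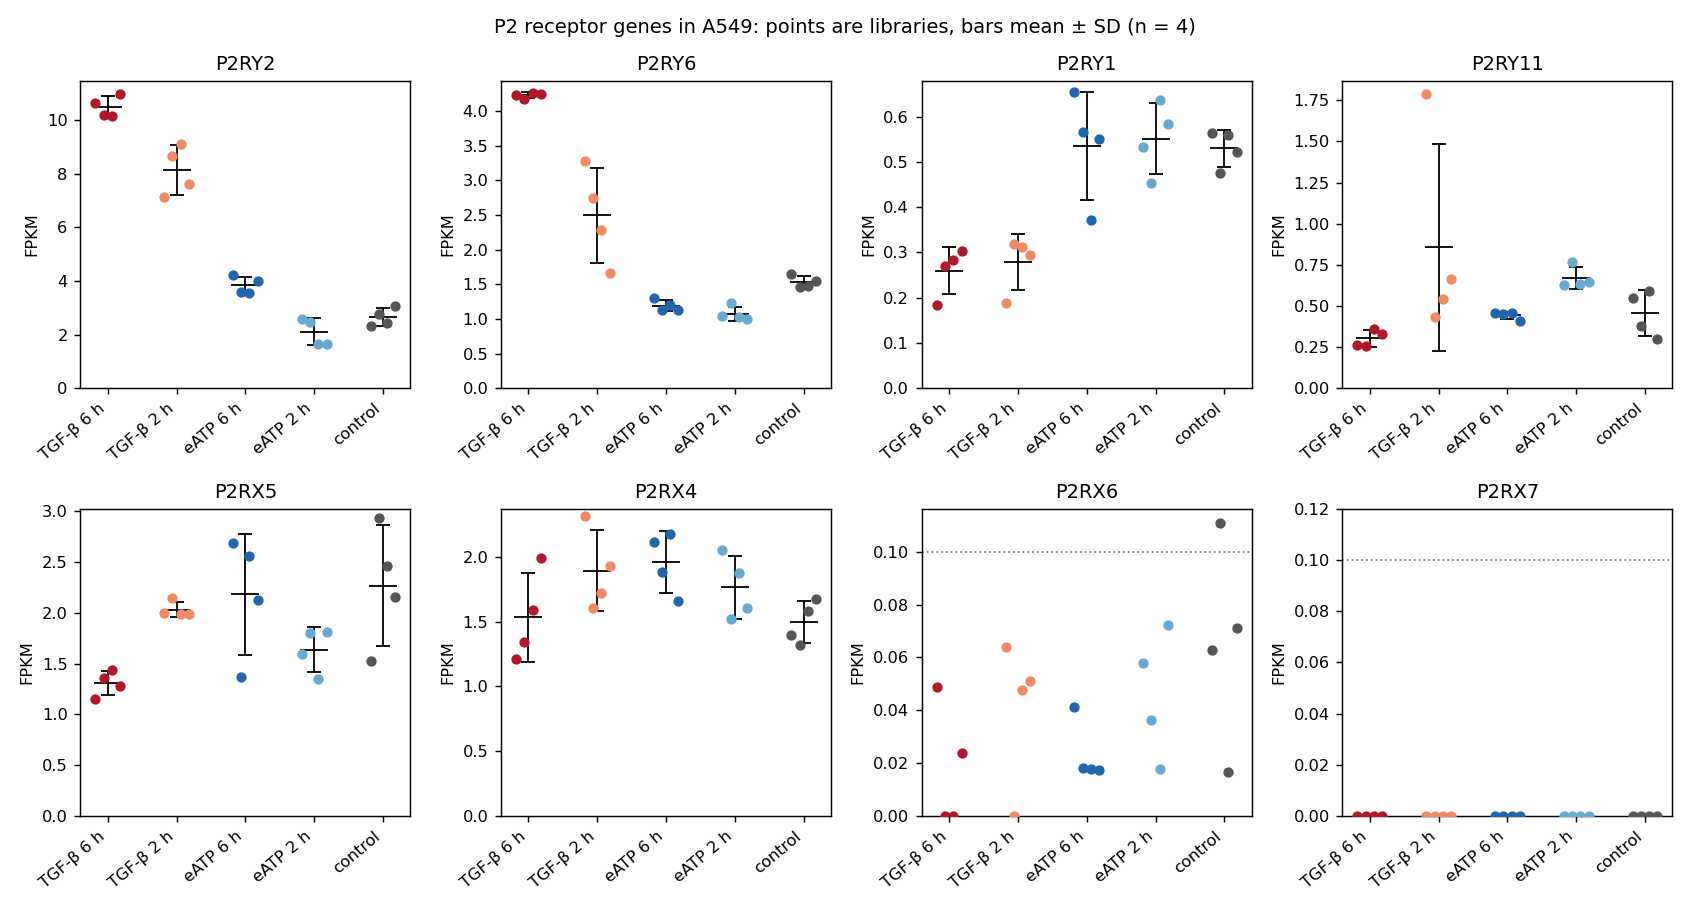
FPKM (vertical axes) of the 8 receptor genes in every library, with the groups from left to right as TGF-β 6 h, TGF-β 2 h, eATP 6 h, eATP 2 h and control; points are libraries, black bars are the mean ± SD (n = 4) where drawn, and the dotted line in the panels of P2RX6 and P2RX7 marks 0.1 FPKM. The 8 TGF-β libraries of P2RY2 lie between 7.11 and 10.98 FPKM, above all others, while the 8 TGF-β libraries of P2RY1 lie below all others.

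P2RY2, the receptor for ATP and UTP, was upregulated by TGF-β at both times. Its level was 10.64, 10.19, 10.15 and 10.98 FPKM in the libraries of TGF-β 6 h and 7.11, 8.66, 9.12 and 7.62 FPKM in those of TGF-β 2 h, against 2.33, 2.78, 2.45 and 3.07 FPKM in the controls. Every TGF-β library was above every control library, and every library of TGF-β 6 h was above every one of TGF-β 2 h. The log2(FC) was 2.06 at 6 hours (SE 0.14, 4.16-fold, adjusted p = 3.7e-09) and 1.63 at 2 hours (SE 0.14, 3.11-fold, adjusted p = 1.16e-07). These and the other adjusted p-values are from edgeR, its quasi-likelihood test on the counts with Benjamini-Hochberg adjustment over 20094 genes, unless another tool is named. Without TGF-β 2 h replicate 1 the value at 2 hours was 1.68 (adjusted p = 2.24e-07).

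With eATP, P2RY2 was upregulated at 6 hours. The libraries had 4.20, 3.60, 3.56 and 4.004 FPKM in eATP 6 h and 2.60, 2.48, 1.66 and 1.67 FPKM in eATP 2 h, against the 2.33 to 3.07 FPKM of the controls. At 6 hours the groups did not overlap, and at 2 hours they did, with 2 of the eATP libraries below all controls. P2RY2 rose by 0.55 on the log2 scale at 6 hours (SE 0.13, 95% interval 0.26 to 0.84, adjusted p = 0.0307), and the log2(FC) at 2 hours was -0.32 (SE 0.13, 95% interval -0.61 to -0.03, adjusted p = 0.19). The call at 6 hours was lost when control replicates 1, 2 or 3 or eATP 6 h replicates 1 or 4 were left out (log2(FC) 0.50 to 0.62, adjusted p 0.0302 to 0.103 over all 8 omissions). Set against eATP 2 h, eATP 6 h was higher by 0.87 (SE 0.14, adjusted p = 0.000226), without overlap of the libraries.

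P2RY6, the gene of the receptor for UDP, was upregulated by TGF-β as well. It had 4.23, 4.17, 4.26 and 4.25 FPKM in TGF-β 6 h and 3.27, 2.75, 2.29 and 1.67 FPKM in TGF-β 2 h, against 1.65, 1.46, 1.48 and 1.55 FPKM in the controls. Both TGF-β groups lay wholly above the controls, although the lowest library of TGF-β 2 h was within 0.1 FPKM of the highest control. P2RY6 rose by 1.54 on the log2 scale at 6 hours (SE 0.15, 2.91-fold, adjusted p = 5.46e-07) and by 0.73 at 2 hours (SE 0.15, 1.66-fold, adjusted p = 0.00253). Without TGF-β 2 h replicate 1, its highest library, the value at 2 hours was 0.55 (adjusted p = 0.00593), and with a fit of these groups alone the call at 2 hours was lost (adjusted p = 0.0869; range over the other settings 6.37e-05 to 0.0112). TGF-β 6 h exceeded TGF-β 2 h by 0.81 (SE 0.15, adjusted p = 0.00126), a call that the fit of these groups alone also lost (adjusted p = 0.0655), and by 0.97 without TGF-β 2 h replicate 1 (adjusted p = 5.12e-05). With eATP its libraries had 1.12 to 1.30 FPKM at 6 hours and 1.00 to 1.22 FPKM at 2 hours, all below the controls. Neither difference passed the test, with -0.34 at 6 hours (95% interval -0.66 to -0.02, adjusted p = 0.317) and -0.49 at 2 hours (95% interval -0.81 to -0.16, adjusted p = 0.0545). At 2 hours P2RY6 was called lower by DESeq2 (adjusted p = 0.0286) and by limma on log2(FPKM + 0.1) (adjusted p = 0.0399). EdgeR called it lower with a filter of 1 FPKM (adjusted p = 0.0445) and with a fit of these groups alone (adjusted p = 0.0196). Limma on log2(FPKM + 1) did not (adjusted p = 0.0834).

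P2RY2 and P2RY6 are neighbours on the forward strand of chromosome 11 (GENCODE release 29, GRCh38). P2RY2 covers chr11:73218298-73236352 and P2RY6 chr11:73264505-73298617, with 28152 bases between them. Both genes were called higher in both TGF-β groups, and they were the only 2 of the receptors tested that were called higher with TGF-β. Of all genes tested, 8.4% were called higher in TGF-β 6 h and 7.25% in TGF-β 2 h. A link between the position of the 2 genes and their change was not tested.

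P2RY1 (chr3:152834693-152841439), which encodes the ADP receptor that couples to Gq, was downregulated by TGF-β. It had 0.184, 0.270, 0.282 and 0.303 FPKM in TGF-β 6 h and 0.188, 0.319, 0.313 and 0.294 FPKM in TGF-β 2 h, against 0.563, 0.474, 0.560 and 0.522 FPKM in the controls. The 8 TGF-β libraries all lay below the lowest control. The counts behind these values were 94 to 177 in the TGF-β libraries and 235 to 316 in the controls. P2RY1 fell by 0.95 on the log2 scale at 6 hours (SE 0.20, 0.517-fold, adjusted p = 0.00169) and by 0.90 at 2 hours (SE 0.19, 0.535-fold, adjusted p = 0.00363), and at 2 hours without TGF-β 2 h replicate 1 the value was -0.77 (adjusted p = 0.0105). On the log2(FPKM + 1) scale, which shrinks changes of genes this low, limma gave P2RY1 -0.28 at 6 hours and -0.26 at 2 hours, both called. With eATP the log2(FC) was 0.04 (95% interval -0.37 to 0.44) at 6 hours and 0.08 (95% interval -0.33 to 0.49) at 2 hours, and the groups overlapped.

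P2RY11 (chr19:10111538-10115372) encodes a receptor for ATP that couples to both Gs and Gq. Its libraries had 0.263, 0.254, 0.361 and 0.332 FPKM in TGF-β 6 h and 1.79, 0.431, 0.542 and 0.664 FPKM in TGF-β 2 h, against 0.549, 0.380, 0.593 and 0.300 FPKM in the controls. The value of 1.79 belongs to TGF-β 2 h replicate 1, the library that deviated. In no comparison with the controls did P2RY11 pass the test: the log2(FC) was -0.52 (adjusted p = 0.407) in TGF-β 6 h, 0.94 (adjusted p = 0.0956) in TGF-β 2 h, -0.02 (adjusted p = 0.997) in eATP 6 h and 0.57 (adjusted p = 0.431) in eATP 2 h. Without TGF-β 2 h replicate 1 the value in TGF-β 2 h was 0.26 (adjusted p = 0.59), and without TGF-β 2 h replicate 2, its lowest library, it passed the test at 1.18 (adjusted p = 0.0277). The 4 libraries of eATP 2 h, at 0.628 to 0.766 FPKM, were all above the controls, a direction that turned when the counts of an overlapping gene model were added, as described with the gene models. Between the times of TGF-β, P2RY11 was called lower at 6 hours (log2(FC) -1.46, SE 0.36, adjusted p = 0.0108). The difference was -0.79 without the deviating library (adjusted p = 0.0277), and a fit of the TGF-β groups alone lost the call.

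Among the ion channel genes, P2RX5 (chr17:3672199-3696404) was downregulated after 6 hours of TGF-β. Its libraries had 1.16, 1.36, 1.44 and 1.28 FPKM in TGF-β 6 h, 2.00, 2.14, 1.99 and 1.99 FPKM in TGF-β 2 h, and 1.52, 2.94, 2.46 and 2.16 FPKM in the controls. TGF-β 6 h lay below all controls, by a margin of under 0.1 FPKM to control replicate 1, and TGF-β 2 h lay within their range. P2RX5 fell by 0.71 on the log2 scale at 6 hours (SE 0.20, 0.610-fold, adjusted p = 0.0165), and the value at 2 hours was -0.13 (SE 0.19, adjusted p = 0.745). The call was lost without control replicate 2 (-0.57, adjusted p = 0.0726) and without TGF-β 6 h replicate 1 (-0.66, adjusted p = 0.0528). With eATP the libraries had 2.69, 1.37, 2.56 and 2.12 FPKM at 6 hours and 1.59, 1.80, 1.35 and 1.82 FPKM at 2 hours. Both eATP groups overlapped the controls, and the log2(FC) of -0.03 (adjusted p = 0.989) and -0.45 (adjusted p = 0.206) did not pass the test.

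P2RX4, a widely expressed channel subunit found on lysosomes as well as on the plasma membrane, passed the test in none of the comparisons with the controls. Its level was 1.53 ± 0.344 FPKM in TGF-β 6 h, 1.89 ± 0.312 in TGF-β 2 h, 1.96 ± 0.237 in eATP 6 h and 1.76 ± 0.245 in eATP 2 h, against 1.49 ± 0.164 FPKM in the controls (SD, n = 4 each). The log2(FC) was 0.11 (95% interval -0.23 to 0.45), 0.37 (0.03 to 0.71), 0.41 (0.07 to 0.75) and 0.26 (-0.08 to 0.60) in these groups, with adjusted p from 0.154 to 0.741. Without TGF-β 2 h replicate 1 the value in TGF-β 2 h was 0.24 (adjusted p = 0.405).

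**Figure D2:**
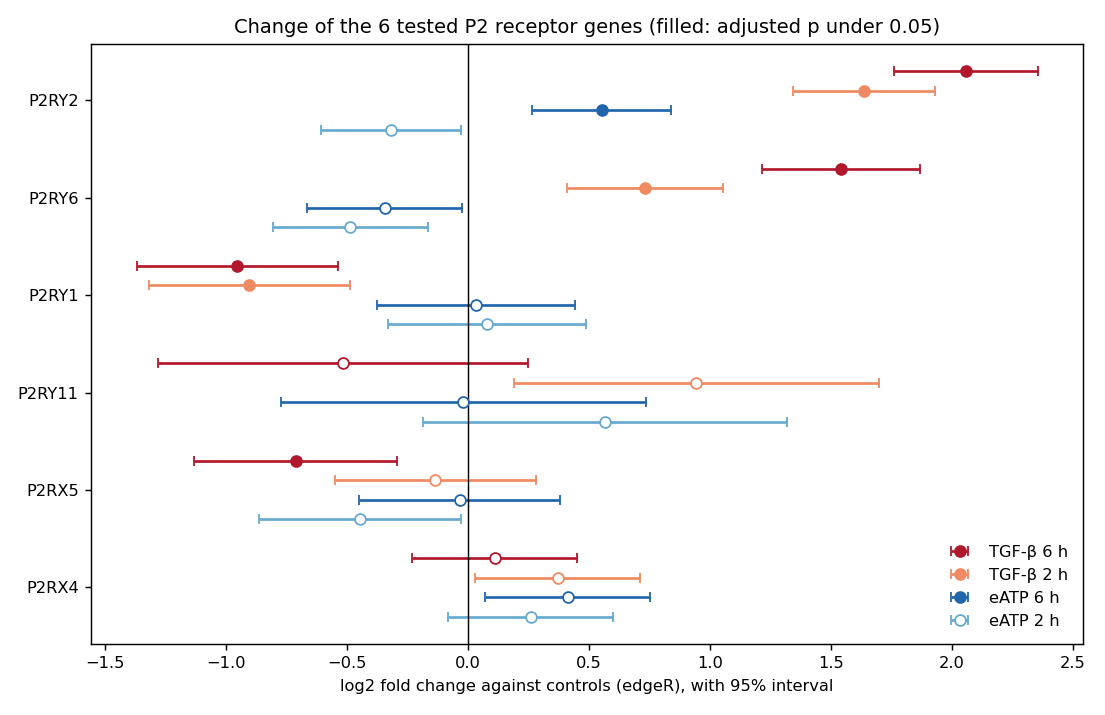
Log2(FC) against the controls (horizontal axis) of the 6 tested receptor genes from edgeR, with 95% intervals; filled points have an adjusted p under 0.05 and open points do not, and within each gene the groups run from top to bottom as TGF-β 6 h, TGF-β 2 h, eATP 6 h and eATP 2 h. TGF-β gives 7 filled points, 2 genes to the right and 2 to the left at 6 hours, and eATP gives 1, P2RY2 at 6 hours with 0.55.

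Counted over the family, TGF-β at 6 hours changed 4 of the 6 receptors tested, where 16.2% of all genes tested were called. The 2 higher and 2 lower stand beside 8.4% of all genes higher and 7.76% lower, and the libraries of the 4 did not overlap the controls, as was so for 23.5% of all genes. At 2 hours it changed 3, against 12.9% of all genes, 2 higher (7.25% of all genes) and 1 lower (5.67%), and these 3 did not overlap the controls (16.4%). With eATP at 6 hours 1 receptor was called, as higher, against 2.99% of all genes called and 1.71% called higher, and 2 did not overlap the controls, P2RY2 above and P2RY6 below them (11.3%). After 2 hours of eATP the call count by the main edgeR model was 0 of 6, against 8.58% of all genes, although 3 had an unadjusted p under 0.05. DESeq2, limma on log2(FPKM + 0.1), and edgeR with a filter of 1 FPKM or these groups alone each called 1, P2RY6, as lower. The libraries of 2 receptors did not overlap the controls in eATP 2 h, P2RY6 below and P2RY11 above them, where 19.6% of all genes did not overlap. The median log2(FC) of the 6 receptors was -0.20 in TGF-β 6 h, 0.55 in TGF-β 2 h, 0.01 in eATP 6 h and -0.12 in eATP 2 h, and that of all genes tested lay between -0.01 and 0.02.

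The inducers were then compared directly at each time. At 6 hours P2RY6 was higher with TGF-β than with eATP on the log2 scale by 1.88 (SE 0.15, adjusted p = 4.42e-08) and P2RY2 by 1.504 (SE 0.14, adjusted p = 1.68e-07), while P2RY1 was lower (log2(FC) -0.99, SE 0.20, adjusted p = 0.00117). P2RX5 was lower as well (log2(FC) -0.68, SE 0.20, adjusted p = 0.0211), a call lost without eATP 6 h replicates 1 or 3 or TGF-β 6 h replicates 1 or 4 and with a fit of these groups alone. These 4 of 6 receptors stand beside 17.6% of all genes called between the inducers at 6 hours. At 2 hours P2RY2 was higher with TGF-β by 1.95 (SE 0.14, adjusted p = 1.1e-08) and P2RY6 by 1.22 (SE 0.15, adjusted p = 1.65e-05), and P2RY1 was lower (log2(FC) -0.98, SE 0.19, adjusted p = 0.00208), 3 of 6 receptors where 9.08% of all genes were called. Without TGF-β 2 h replicate 1 these values were 2.00 for P2RY2, 1.04 for P2RY6 and -0.85 for P2RY1, and all were called. The libraries of the inducers did not overlap for 4 of 6 receptors at each time, as was so for 23.6% of all genes at 6 hours and 15.3% at 2 hours. These were P2RY2, P2RY6 and P2RY1 at both times, with P2RY11 (lower with TGF-β) at 6 hours and P2RX5 (higher) at 2 hours. The last 2 were not called, and the libraries of P2RX5, called at 6 hours, overlapped there.

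Between 6 and 2 hours of TGF-β, 3 of the 6 receptors were called, P2RY2 and P2RY6 higher and P2RY11 lower at 6 hours, where 12.1% of all genes were called. P2RY2 was higher by 0.42 (SE 0.13, adjusted p = 0.0476), a call lost with 7 other settings and in all omissions of a TGF-β library but that of TGF-β 2 h replicate 3 (log2(FC) between 0.36 and 0.47, adjusted p between 0.0472 and 0.121). Between 6 and 2 hours of eATP, P2RY2 alone was called, where 12.6% of all genes were. A change over time unlike between TGF-β and eATP was called for P2RX5 (-0.99, SE 0.28, adjusted p = 0.0394), as for 6.12% of all genes. P2RY6 missed the threshold (0.67, SE 0.21, adjusted p = 0.0799) and passed it without TGF-β 2 h replicate 1 (0.83, adjusted p = 0.00494), by the DESeq2 test and by limma on log2(FPKM + 1). For P2RX5 the change was -0.58 (adjusted p = 0.0652) with TGF-β and 0.41 (adjusted p = 0.209) with eATP, and the difference was lost in 12 of 16 omissions of a library (adjusted p 0.00586 to 0.0921).

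Summed over the 8 genes, receptor transcripts came to 18.1 ± 0.710 FPKM in TGF-β 6 h, 15.7 ± 1.06 in TGF-β 2 h, 10.2 ± 1.01 in eATP 6 h and 7.84 ± 0.641 in eATP 2 h, against 9.003 ± 0.634 FPKM in the controls (SD, n = 4 each). P2RY2 made up 57.9% of this sum in TGF-β 6 h, 51.9% in TGF-β 2 h, 37.9% in eATP 6 h and 26.5% in eATP 2 h, against 29.5% in the controls. The share of P2RX5 was 7.22% in TGF-β 6 h, against 25.0% in the controls, and that of P2RX4 8.40%, against 16.6%. A share can fall because the sum grows: the level of P2RX4 itself was 1.53 FPKM in TGF-β 6 h and 1.49 FPKM in the controls. The sum rests on FPKM, which depends on the transcript length assigned to each gene.

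**Figure D3:**
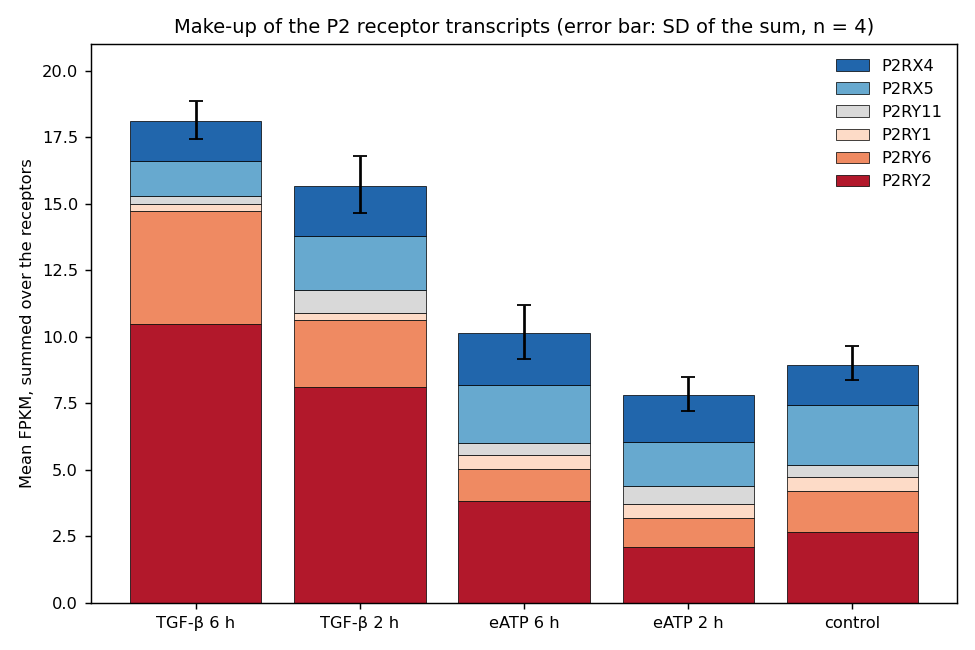
Mean FPKM of the 6 expressed receptor genes (vertical axis), stacked for TGF-β 6 h, TGF-β 2 h, eATP 6 h, eATP 2 h and control from left to right; the error bar is the SD of the summed FPKM of all 8 genes over 4 libraries. The P2RY2 segment is 10.5 FPKM in TGF-β 6 h and 8.13 in TGF-β 2 h, against 2.66 FPKM in the controls.

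Some receptor genes share sequence with other gene models, and no source used here says how reads were divided between them. P2RY11 shares 1148 bases, 50.0% of its exons, with the readthrough model PPAN-P2RY11. In the treated libraries that model had 0 to 1.57 CPM. Control replicates 1 to 4 had 1.71, 0, 0 and 8.37 CPM of it, the last the highest of all 20 libraries. The counts of P2RY11 are therefore uncertain. P2RY11 also shares 97 bases with PPAN, whose log2(FC) of 0.02, 0.25, 0.30 and 0.11 in TGF-β 6 h, TGF-β 2 h, eATP 6 h and eATP 2 h did not pass the test. With both models summed, a setting chosen after seeing the data, the difference of P2RY11 between 6 and 2 hours of TGF-β was -1.30 (adjusted p = 0.184) and its call was lost. Against the controls the log2(FC) of the sum was -1.74 (adjusted p = 0.0519) in TGF-β 6 h and -0.44 in TGF-β 2 h. It was -0.95 in eATP 6 h and -0.83 in eATP 2 h, and none of these was called. The direction in TGF-β 2 h and eATP 2 h thus turned from that of P2RY11 alone. This turn was not tested without control replicate 4, whose 8.37 CPM of the readthrough model stand beside 0.777 CPM of P2RY11. PPAN was low in that library, at 21.7 CPM against 38.9 to 40.5 CPM in the other controls. Whether reads were divided differently there was not tested. P2RX5 shares 1743 bases, 41.6% of its exons, with P2RX5-TAX1BP3, which had 125 to 731 counts, the highest again in replicate 1 of TGF-β 2 h. With those models summed P2RX5 fell by 0.61 in TGF-β 6 h (adjusted p = 0.00816), against 0.71 alone. TAX1BP3 itself rose by 0.75 in TGF-β 6 h (adjusted p = 0.00074). The pseudogene P2RX6P had no count in any library.

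For P2RY2 the model concerned is AP002761.4, a transcript on the same strand that begins 2622 bases after the end of P2RY2 in GENCODE release 29 (chr11:73238975-73242335, GRCh38) and shares no exonic base with it. In RefSeq it lies within the span of P2RY2. AP002761.4 had 13.24, 13.7, 14.18 and 14.02 FPKM in TGF-β 6 h and 8.04, 7.63, 8.74 and 7.51 FPKM in TGF-β 2 h, against 2.84, 2.98, 2.51 and 3.06 FPKM in the controls. Its log2(FC) was 2.35 (adjusted p = 2.66e-12) and 1.51 (adjusted p = 1.21e-09) in these groups, and every TGF-β library was above every control. With eATP it had 3.42, 3.38, 3.19 and 2.87 FPKM at 6 hours and 1.94, 1.48, 1.62 and 1.57 FPKM at 2 hours. AP002761.4 fell by 0.76 on the log2 scale at 2 hours of eATP (SE 0.09, adjusted p = 1.14e-05) without overlap, and had 0.20 (adjusted p = 0.343) at 6 hours. With its counts added to those of P2RY2, a setting chosen after seeing the data, the sum was lower at 2 hours of eATP (log2(FC) -0.55, adjusted p = 0.000567), higher at 6 hours (0.36, adjusted p = 0.0349), and higher with TGF-β by 2.23 at 6 hours and 1.57 at 2 hours.

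**Figure D4:**
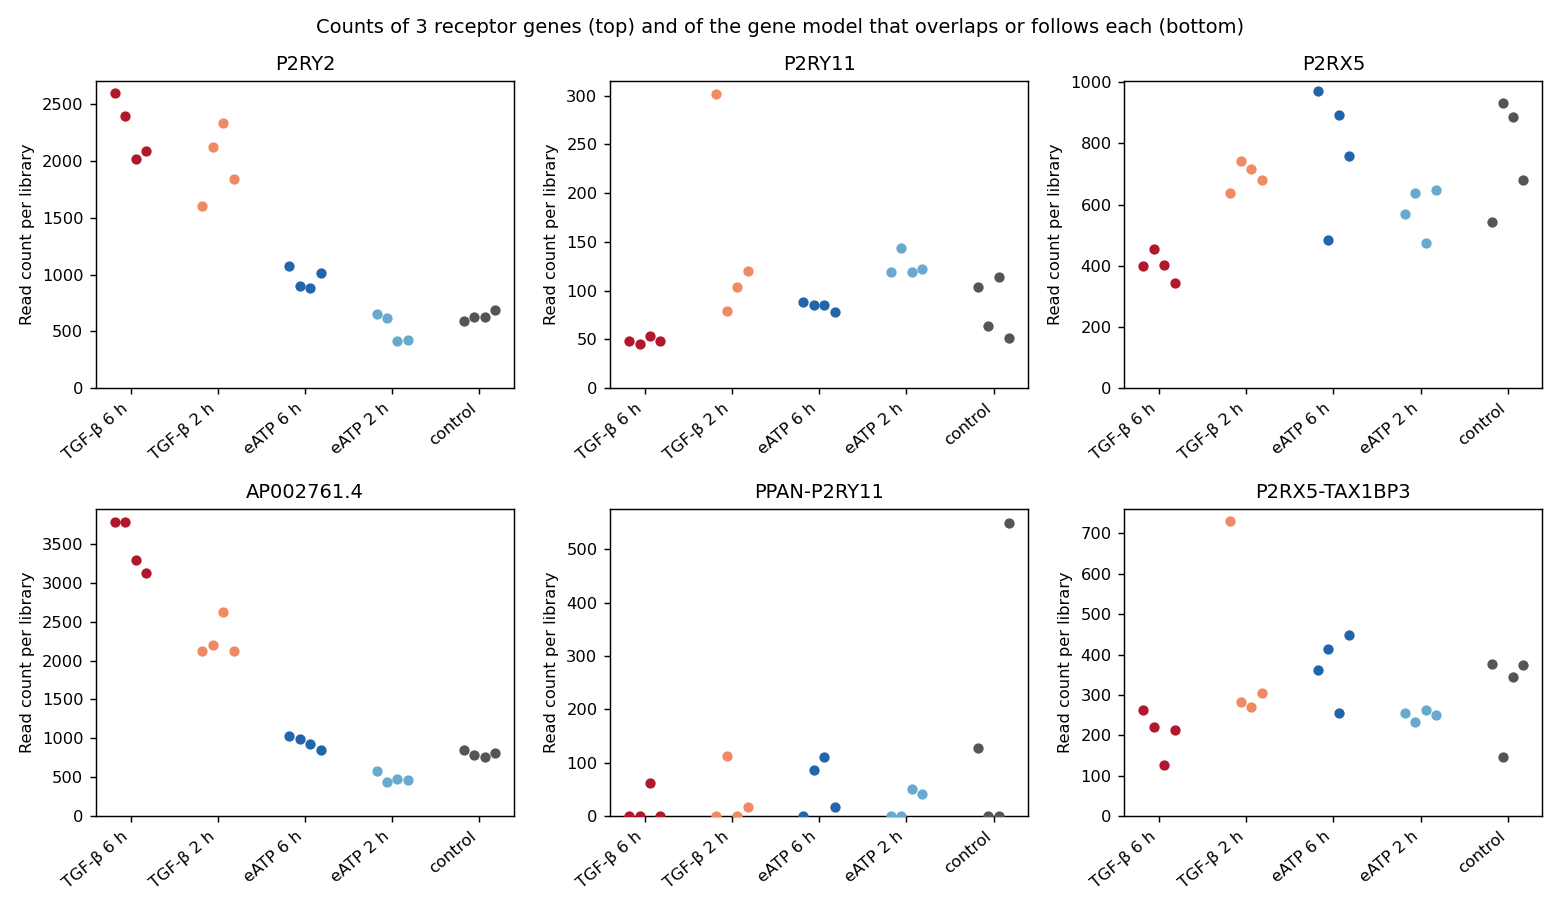
Read counts per library (vertical axes) of P2RY2, P2RY11 and P2RX5 in the top row and of AP002761.4, PPAN-P2RY11 and P2RX5-TAX1BP3 in the row beneath, with the groups from left to right as TGF-β 6 h, TGF-β 2 h, eATP 6 h, eATP 2 h and control. AP002761.4 follows the order of P2RY2, PPAN-P2RY11 is scattered with its highest count in 1 control, and TGF-β 2 h replicate 1 has 302 counts of P2RY11 and 731 of P2RX5-TAX1BP3.

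The genes whose levels were most like those of each called receptor were found by Pearson's correlation of log2(FPKM + 0.1) over the 20 libraries, among 11381 genes. The points share libraries and groups, so these values are a description. For P2RY2 the genes were AP002761 (r = 0.97) and the LIM kinase gene LIMK2 (r = 0.97). AP002761 is the model AP002761.4 described above, which lies within the span of P2RY2 in RefSeq. For P2RY6 they were LRRN2 (r = 0.98) and the actin-binding transgelin gene TAGLN (r = 0.97). For P2RY1 they were the glycerol phosphate acyltransferase gene GPAT3 (r = 0.92) and ANKRD33B (r = 0.92). For P2RX5 they were TMEM17 (r = 0.86) and the choline phosphotransferase gene CHPT1 (r = 0.78).

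Genes that make, remove or respond to the ligands of these receptors were followed on lists. Of the adenosine receptors, which bind the product left after ATP is stripped of its phosphates, 3 of 4 were tested. ADORA2B, the low-affinity adenosine receptor gene, fell by 1.55 at 6 hours of TGF-β (SE 0.12, adjusted p = 2.46e-08) and by 0.37 at 2 hours (SE 0.12, adjusted p = 0.0439), and it had 0.42 (adjusted p = 0.0687) and 0.11 (adjusted p = 0.736) at 6 and 2 hours of eATP. Its level was 1.89 ± 0.276 FPKM in TGF-β 6 h, against 5.88 ± 0.670 in the controls (SD, n = 4 each). Of the ectonucleotidases, 5 of 9 were tested, and with TGF-β 2 were higher at each time and 1 was lower at 6 hours, beside 8.4% of all genes called higher and 7.76% called lower in TGF-β 6 h and 7.25% called higher in TGF-β 2 h. NT5E, which converts AMP to adenosine, rose by 0.83 in TGF-β 6 h (adjusted p = 2.75e-06), 0.37 in TGF-β 2 h (adjusted p = 0.0113) and 0.59 in eATP 2 h (adjusted p = 0.00033), and had 0.21 (adjusted p = 0.336) in eATP 6 h. The alkaline phosphatase gene ALPL rose by 2.56 (adjusted p = 0.00846) and 2.83 (adjusted p = 0.00578) at 6 and 2 hours of TGF-β, at a level of 0.485 ± 0.0603 and 0.604 ± 0.133 FPKM, against 0.0831 ± 0.0548 FPKM in the controls. ENPP1, which cleaves ATP to AMP, fell by 0.42 in TGF-β 6 h (adjusted p = 0.0139).

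Of 4 ATP release genes tested, only PANX1, the gene of the pannexin 1 channel, was called against the controls. It was higher in all 4 comparisons, 1 of 4 genes in each. Of all genes 16.2% were called in TGF-β 6 h, 12.9% in TGF-β 2 h, 2.99% in eATP 6 h and 8.58% in eATP 2 h. PANX1 rose by 0.69 in TGF-β 6 h (adjusted p = 1.13e-05), 0.32 in TGF-β 2 h (adjusted p = 0.0195), 0.40 in eATP 6 h (adjusted p = 0.0137) and 0.75 in eATP 2 h (adjusted p = 1.06e-05). These comparisons share their controls.

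Downstream of the receptors, 14 of 17 genes of G protein subunits, phospholipase C and inositol trisphosphate receptors were tested. In TGF-β 6 h 2 were higher and 2 lower, among them the Gi subunit gene GNAI1 (-0.80, adjusted p = 0.000147), PLCB3, a phospholipase C activated by Gq (0.52, adjusted p = 6.31e-05), and GNA12 (0.50, adjusted p = 8.28e-05), all on the log2 scale. In TGF-β 2 h 2 were lower, and in eATP 2 h 1 was lower. Of all genes 16.2% were called in TGF-β 6 h, 12.9% in TGF-β 2 h and 8.58% in eATP 2 h, and the counts of 2 and 1 of 14 are near these shares. Of 12 desensitisation genes tested, 3 were higher and 1 lower in TGF-β 6 h, 2 and 2 in TGF-β 2 h, and 2 and 1 in eATP 2 h, beside the same 16.2%, 12.9% and 8.58% of all genes called. RGS2, which shortens signalling by Gq, rose by 1.26 in eATP 2 h (adjusted p = 9.62e-08) and by 0.34 in TGF-β 6 h (adjusted p = 0.0242), and fell by 0.40 in TGF-β 2 h (adjusted p = 0.0114). ARRB1, the gene of β-arrestin 1, rose by 1.02 in TGF-β 2 h (adjusted p = 0.00658) and 0.81 in eATP 2 h (adjusted p = 0.039) and fell by 0.87 in TGF-β 6 h (adjusted p = 0.0155). RGS3, of the same family as RGS2, fell by 1.10 in eATP 2 h (adjusted p = 1.56e-06) and by 0.43 in TGF-β 2 h (adjusted p = 0.0109), and rose by 0.40 in TGF-β 6 h (adjusted p = 0.0148).

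Among 17 calcium and protein kinase C effector genes tested, 6 were higher in TGF-β 6 h, 5 in TGF-β 2 h and 6 in eATP 2 h, and 1 was lower in eATP 6 h. Of all genes 16.2% were called in TGF-β 6 h, 12.9% in TGF-β 2 h, 8.58% in eATP 2 h and 2.99% in eATP 6 h, in either direction. NFATC2, a transcription factor activated through calcineurin, rose by 2.35 in eATP 2 h (adjusted p = 1.89e-09), 1.31 in TGF-β 2 h (adjusted p = 1.57e-06) and 0.75 in TGF-β 6 h (adjusted p = 0.000509). NFATC1 and the protein kinase C gene PRKCE rose in the same groups, by 0.66 to 1.69 on the log2 scale. Of 6 genes tested on the axis that P2X7 feeds in myeloid cells, 1 was higher and 1 lower in TGF-β 6 h, and 2 were higher in TGF-β 2 h and in eATP 2 h, beside the same shares of all genes. IL1B rose by 2.37 in eATP 2 h (adjusted p = 1.03e-06), 1.61 in TGF-β 6 h (adjusted p = 3.31e-05) and 0.97 in TGF-β 2 h (adjusted p = 0.00581). Whether any P2 receptor took part in this was not tested. CASP1, the gene of the protease that matures interleukin 1β, fell by 1.59 in TGF-β 6 h (adjusted p = 0.00112), and GSDMD, which encodes a pore-forming protein, rose by 0.59 in TGF-β 2 h (adjusted p = 0.0135).

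The median log2(FC) of the tested ectonucleotidases was 0.45 in TGF-β 6 h, 0.37 in TGF-β 2 h, 0.08 in eATP 6 h and 0.14 in eATP 2 h. That of the calcium and protein kinase C effectors was 0.28, 0.20, -0.13 and 0.09 in these groups, and that of the ATP release genes 0.28, 0.06, 0.28 and 0.28. The G protein list had medians of 0.10, -0.03, 0.01 and 0.02, the desensitisation list 0.03, -0.09, 0.06 and -0.07, and the P2X7 axis 0.04, 0.25, 0.01 and 0.17, where all genes tested had -0.01 to 0.02.

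**Figure D5:**
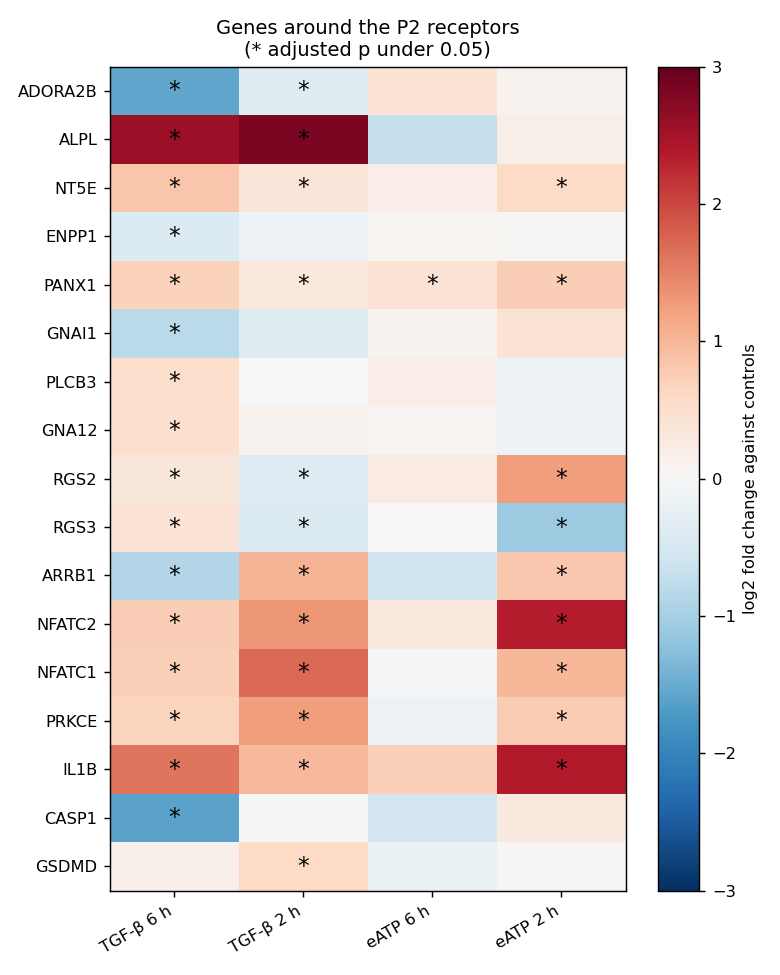
Log2(FC) against the controls (colour, red higher and blue lower) of the 17 tested list genes named in the text, in rows, for TGF-β 6 h, TGF-β 2 h, eATP 6 h and eATP 2 h from left to right; a star marks an adjusted p under 0.05 by edgeR. PANX1 is the only row with 4 stars, and eATP 6 h has a star in no other row.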

How the data were processed

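RNA of A549 cells was measured in 20 stranded polyA libraries, 4 for each of 5 groups, which were taken from the sample labels. The labels number more libraries per group than the study's text, and all were used. The authors deposited whole-number read counts, not normalized. The authors also deposited FPKM values, normalized for transcript length and library size, in which a count of 0 is listed as 0.0001. HISAT2, StringTie and edgeR are named in the submitters' processing notes, and for the genome build nothing is given in the sources used here. Positions and exons came from GENCODE release 29 (GRCh38), in which the identifiers of all 8 receptor genes were found.

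The filter asked for 0.1 FPKM or more in 4 or more of the 20 libraries, which 20094 genes passed. After TMM scaling they entered 1 quasi-likelihood model of all 5 groups (edgeR 4.0.16 in R 4.3.3, 15 residual degrees of freedom). Calls were two-sided, with Benjamini-Hochberg adjustment and a threshold of 0.05 on the adjusted p. The SE of a log2(FC) came from its size and the F statistic. The test was tested on simulated data. The receptor genes and the lists were chosen with earlier results of these data known. All 8 receptors were named, with the 2 genes most like each receptor called against the controls and with a mean of at least 1 FPKM, the gene models that can share reads (AP002761.4 was added after its values were seen), and from each list up to 3 called members with the largest change, or 2 where none was called. AP002761 passed the rule for like genes because the file lists it without a version.

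Alternatives were other filters and scalings, DESeq2 1.42.0, limma 3.58.1 on log2(FPKM + 0.1) and log2(FPKM + 1), robust estimation, fitting only the groups compared, blocking on the replicate number, leaving out each library in turn, and, added after seeing the data, counts summed with an adjoining or overlapping gene model. Limits from a count of 0 cover counting error only.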

Additional observations from a re-analysis of the deposited data

Results flagged for a closer look

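Of 35 groups of 4 libraries examined for 1 library far from the other 3, 4 were found, and chance gives about 1 in 20. They were P2RX5 in TGF-β 2 h replicate 2 at 2.14 FPKM, P2RX6 in eATP 6 h replicate 1 at 0.0413 FPKM, P2RY11 in eATP 2 h replicate 2 at 0.766 FPKM and P2RY11 in eATP 6 h replicate 4 at 0.410 FPKM. P2RX5 and P2RY11 in these groups otherwise varied little, and P2RX6 rests on 8 to 19 counts there.

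Between the inducers, the effect differed on the log2 scale at 6 hours for P2RY6 (1.88), P2RY2 (1.504), P2RY1 (-0.99) and P2RX5 (-0.68), and at 2 hours for P2RY2 (1.95), P2RY6 (1.22) and P2RY1 (-0.98), with TGF-β over eATP. Between 6 and 2 hours it differed for P2RY2 (0.87) with eATP and for P2RY2 (0.42), P2RY6 (0.81) and P2RY11 (-1.46) with TGF-β. For P2RX5 the change over time was not the same with TGF-β as with eATP (-0.99). Each of these 12 differences was tested directly by edgeR's quasi-likelihood test, and their causes were not tested. Of all genes, 17.6% were called between the inducers at 6 hours and 9.08% at 2 hours. Between the times 12.6% were called with eATP and 12.1% with TGF-β, and 6.12% for the change over time. As given above, both calls of P2RX5 were lost in some settings or omissions. So were those of P2RY2, P2RY6 and P2RY11 between the times of TGF-β.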

How the results depend on the processing

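The number of expressed receptors was 6 in every omission of a library, and 4 under a filter of 1 FPKM. No called receptor changed sign, and among 1056 values 34 changed sign without being called. With eATP at 2 hours the count of called receptors was 1 in place of 0 under a filter of 1 FPKM, the DESeq2 test, limma on log2(FPKM + 0.1) and fitting only the groups compared (P2RY6), and 1 with counts summed with the adjoining model (P2RY2), a setting added after seeing the data. With eATP at 6 hours it was 0 in place of 1 with the replicate number as a block (P2RY2 log2(FC) 0.55, adjusted p = 0.0605) and 0 to 1 in the omissions. Between 6 and 2 hours a fit of these groups alone called 2 in place of 1 receptor for eATP (1 to 2 in the omissions) and 1 in place of 3 for TGF-β: P2RY2, P2RY6 and P2RY11 lost the call and P2RX5 gained it (-0.58, adjusted p = 0.0391), as P2RX5 did under a filter of 1 FPKM, the DESeq2 test, limma on log2(FPKM + 0.1) and summed counts. The count for the difference between the inducers in that change was 1 and became 0 without a filter and with the block, 2 with the DESeq2 test and limma on log2(FPKM + 1), and 0 to 2 in the omissions. The replicate numbers did not pair the libraries: same-numbered libraries of 2 groups had correlated deviations of -0.222 to 0.198. The causes of these shifts were not tested. Among the tested receptors P2RY11 had the lowest summed count and the largest SE.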
